A study of Mus musculus with 12 samples.

Results

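The primitive endoderm transcription factors described here are 7 genes, Gata6, Gata4, Sox17, Sox7, Foxa2, Foxq1 and Hnf4a. They were taken from a given list of names, matched by symbol in the authors' deposited table of comparisons to 1 Ensembl gene each, out of 52661 genes in the deposited table of estimated counts. Values come from RNA-seq of 12 libraries made from CGR8, a line of mouse embryonic stem cells. All cells were kept in medium with serum and leukemia inhibitory factor (LIF), which keeps stem cells undifferentiated, and all carried a stable ppy-cagg-ires-puro expression vector, which confers puromycin resistance. In 3 groups the vector encoded netrin-1, a secreted guidance protein: a point mutant named for the receptor neogenin (neo1 MUT), a point mutant named for the receptor Unc5b (unc5B MUT) or the wild-type protein (netrin-1 WT). The 4th group carried the empty vector (control). Each group had 3 libraries, numbered 1 to 3 in the titles, and the labels say neither whether these were separate cultures or clones nor what residues were changed. The spread behind each p-value is that between libraries, and it may be technical. The design asks how the transcriptome changes with netrin-1 and with mutants of its receptor contacts.

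Primitive endoderm is the extraembryonic layer that separates from the pluripotent epiblast in the late blastocyst and later forms visceral and parietal endoderm, the linings of the yolk sacs. In the mouse embryo FGF signalling and the GATA factor Gata6 drive this choice in opposition to Nanog, and Gata4, Sox17 and Sox7 are switched on after Gata6. Cultures of embryonic stem cells in serum and LIF are known to hold a small share of cells with primitive endoderm features, and forced Gata6 or Gata4 turns stem cells into extraembryonic endoderm. Foxa2 and Hnf4a act later, in visceral endoderm and in endodermal organs such as the liver.

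The Ntn1 transcript averaged 159 ± 89.2 CPM in neo1 MUT, 187 ± 144 CPM in unc5B MUT and 196 ± 108 CPM in netrin-1 WT, against 8.43 ± 7.34 CPM in control (SD, n = 3 each; CPM is the count scaled to the TMM-adjusted library total). The stem cell marker Pou5f1 was at 969 CPM or more in all 12 libraries and Zfp42 at 237 CPM or more. Library totals ran from 22256195 to 59735737 estimated counts. The 4 libraries numbered 3 stood apart from the rest. After group means were removed, libraries with the same number correlated at 0.58 to 0.88, whereas number 3 against another number gave -0.60 at most. Numbers 1 and 2 of different groups correlated at 0.49 to 0.76, so these values set only number 3 apart and do not show 3 pairs. Removing the group means itself also lowers the correlations between different numbers. The numbers in the titles were treated as pairs. Each comparison is given from the fit without pairing and from the fit with the number as a block (paired fit). Both are edgeR quasi-likelihood tests on all 21053 genes that passed the low-count filter, adjusted by Benjamini-Hochberg and called under 0.05. All 7 members passed that filter.

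Gata6, Gata4, Sox17, Sox7 and Foxa2 were low in every neo1 MUT and netrin-1 WT library and higher in every unc5B MUT and control library. Foxq1 had the same low groups, with unc5B MUT clear of both these and control, and Hnf4a in netrin-1 WT overlapped unc5B MUT and control. In RNA from bulk cultures, fewer cells of a type and less of a transcript per cell cannot be told apart.

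**Figure D1:**
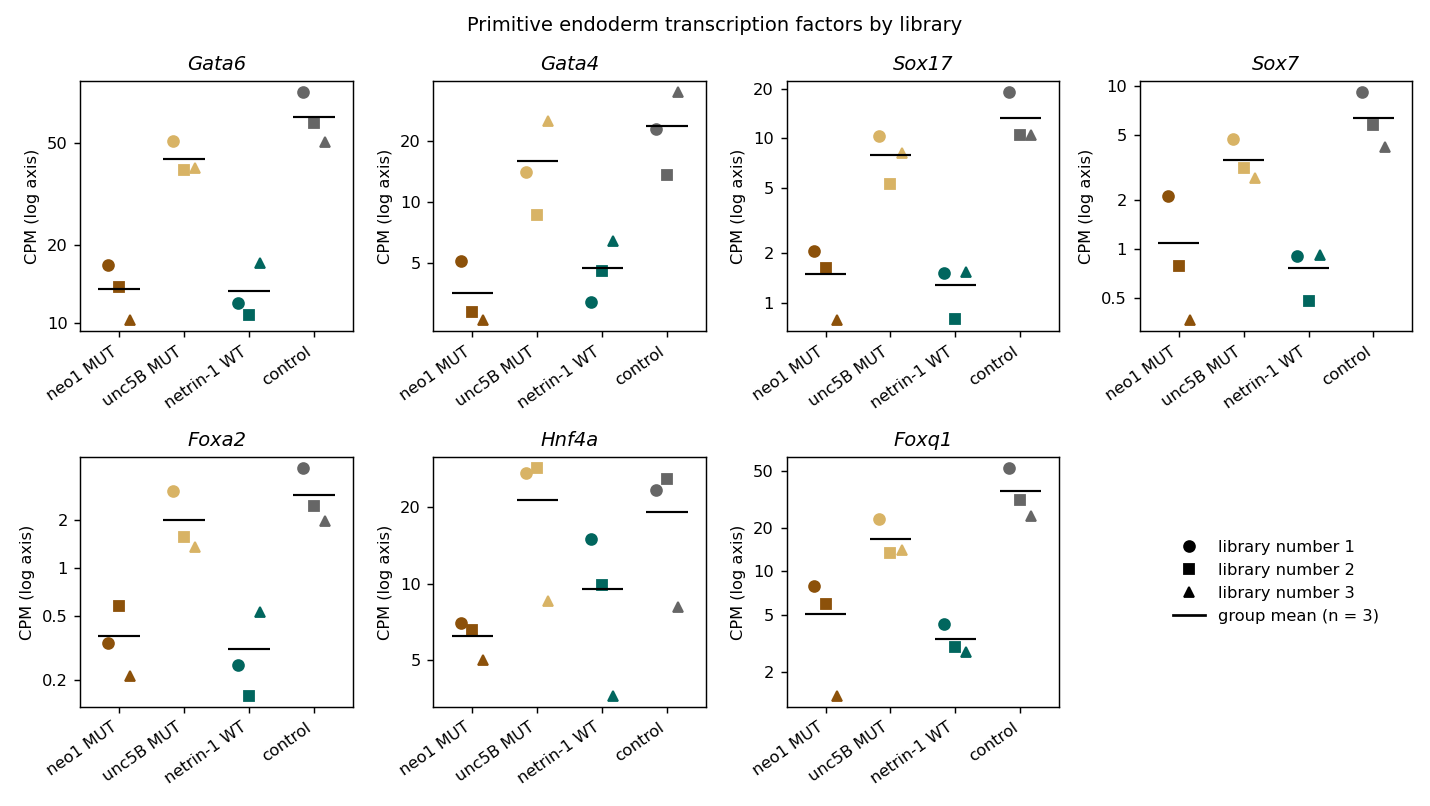
Level of each member in CPM (log axis) in the 12 libraries, by group, with the library number as the symbol and the group mean as a bar (n = 3). For Gata6 the neo1 MUT and netrin-1 WT libraries lie at 10.3 to 17.1 CPM, and the unc5B MUT and control libraries at 39.1 to 78.4 CPM; Hnf4a is low in number 3 of every group.

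Gata6 (ENSMUSG00000005836, chromosome 18, 11052064 to 11085635, plus strand, GRCm38) is the zinc-finger factor at the start of the primitive endoderm programme. It was at 16.7, 13.8 and 10.3 CPM in neo1 MUT, 50.7, 39.1 and 40.04 CPM in unc5B MUT, 11.9, 10.8 and 17.1 CPM in netrin-1 WT and 78.4, 59.7 and 50.3 CPM in control, in the order of numbers 1, 2 and 3, which holds for all values that follow. The neo1 MUT and netrin-1 WT libraries overlapped each other and lay below all other libraries, and unc5B MUT overlapped control. The antisense gene 1010001N08Rik overlaps Gata6 and was lower too, at 0.743 CPM in neo1 MUT, 2.42 CPM in unc5B MUT, 0.676 CPM in netrin-1 WT and 3.8 CPM in control on average. No source used here says whether counting used strand, and reads from this gene pair cannot be told apart. Gata4 (ENSMUSG00000021944, chromosome 14, 63198922 to 63271692, minus strand), a second GATA factor of primitive endoderm that also acts in the heart, was at 5.13, 2.88 and 2.62 CPM in neo1 MUT, 14.0, 8.64 and 25.04 CPM in unc5B MUT, 3.20, 4.56 and 6.44 CPM in netrin-1 WT and 22.7, 13.5 and 34.6 CPM in control. Its libraries split into the same low and high groups, without overlap between them.

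Sox17 (ENSMUSG00000025902, chromosome 1, 4490931 to 4497354, minus strand) and Sox7 (ENSMUSG00000063060, chromosome 14, 63943673 to 63950732, plus strand) are SOX F factors; Sox17 is also a regulator of definitive endoderm and endothelium. Sox17 was at 2.07, 1.62 and 0.787 CPM in neo1 MUT, 10.4, 5.27 and 8.09 CPM in unc5B MUT, 1.53, 0.796 and 1.55 CPM in netrin-1 WT and 19.0, 10.5 and 10.4 CPM in control. All 3 unc5B MUT libraries lay below all 3 control libraries, although the highest unc5B MUT library, at 10.37 CPM, nearly met the lowest control library, at 10.44 CPM. Sox7 was at 2.12, 0.785 and 0.367 CPM in neo1 MUT, 4.76, 3.14 and 2.72 CPM in unc5B MUT, 0.910, 0.477 and 0.921 CPM in netrin-1 WT and 9.16, 5.74 and 4.24 CPM in control. Its neo1 MUT library 1 was the highest of the low groups and still below every unc5B MUT library.

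Foxa2 (ENSMUSG00000037025, chromosome 2, 148042877 to 148046969, minus strand), a pioneer forkhead factor of visceral and definitive endoderm, was the lowest member. It was at 0.342, 0.575 and 0.210 CPM in neo1 MUT, 3.04, 1.57 and 1.36 CPM in unc5B MUT, 0.246, 0.159 and 0.533 CPM in netrin-1 WT and 4.205, 2.44 and 1.95 CPM in control. Its lowest value rests on 4.33 estimated counts in neo1 MUT library 3, with an exact 95% Poisson interval of 1.09 to 10.2 for 4 counts, which covers counting error only. Foxq1 (ENSMUSG00000038415, chromosome 13, 31556134 to 31560976, plus strand), a forkhead factor known in the mouse for its part in hair structure, was at 7.93, 5.88 and 1.36 CPM in neo1 MUT, 23.1, 13.5 and 14.2 CPM in unc5B MUT, 4.33, 3.0 and 2.76 CPM in netrin-1 WT and 52.3, 31.6 and 24.3 CPM in control. Its 3 unc5B MUT libraries lay between the low groups and control, with no overlap on either side.

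Hnf4a (ENSMUSG00000017950, chromosome 2, 163506808 to 163572910, plus strand), a nuclear receptor that drives visceral endoderm and liver genes, followed another order. It was at 7.03, 6.62 and 5.04 CPM in neo1 MUT, 27.2, 28.6 and 8.58 CPM in unc5B MUT, 15.0, 9.92 and 3.63 CPM in netrin-1 WT and 23.5, 25.9 and 8.10 CPM in control. Number 3 was the lowest library of each group, and the netrin-1 WT range ran into those of unc5B MUT and control. The overlapping genes Hnf4aos and Gm25881, like Gm37587 at Sox17 and A530084C06Rik at Foxq1, held at most 2.42 counts in a library.

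Per kilobase of annotated exon, the order of the mean levels in control was Gata6 (9.65 ± 2.20 CPM per kb), Foxq1 (7.45 ± 3.0), Gata4 (6.04 ± 2.71), Hnf4a (3.97 ± 2.0), Sox17 (2.79 ± 1.03), Sox7 (1.93 ± 0.764) and Foxa2 (1.21 ± 0.500), each as mean and SD of n = 3. Each neighbouring pair in that order differed by less than the larger of its SDs. In netrin-1 WT the order on the same scale was Gata6 (2.04 ± 0.512 CPM per kb), Hnf4a (1.97 ± 1.18), Gata4 (1.21 ± 0.417), Foxq1 (0.694 ± 0.175), Sox17 (0.270 ± 0.0898), Sox7 (0.233 ± 0.0767) and Foxa2 (0.132 ± 0.0825). Foxq1 was thus near the top of the members in control and below Hnf4a and Gata4 in netrin-1 WT.

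In netrin-1 WT against control, the GATA, SOX and FOX members fell and Hnf4a did not pass the test. By group means, Gata6 stood at 21.1% of control, Gata4 at 20.1%, Sox7 at 12.1%, Foxa2 at 10.9%, Sox17 at 9.71% and Foxq1 at 9.32%, whereas Hnf4a stood at 49.7%. In the paired fit the log2 fold change was -2.23 ± 0.22 for Gata6 (SE; adjusted p = 0.00066), -2.24 ± 0.36 for Gata4 (adjusted p = 0.00822), -3.36 ± 0.32 for Sox17 (adjusted p = 0.000534), -3.04 ± 0.39 for Sox7 (adjusted p = 0.00256), -3.24 ± 0.53 for Foxa2 (adjusted p = 0.00868) and -3.39 ± 0.34 for Foxq1 (adjusted p = 0.000696). For Hnf4a it was -1.04 ± 0.28 (adjusted p = 0.071). The 6 calls stand against 1.76% of all genes called lower and 1.74% called higher in that fit. Without pairing only Gata6 (adjusted p = 0.0266) and Sox17 (adjusted p = 0.0375) passed in edgeR, against 0.0665% of all genes called lower, and the adjusted p of the other members ran from 0.0805 for Foxq1 to 1.0 for Hnf4a. The authors' deposited table has all 7 members lower with adjusted p of 0.000171 to 0.0204, where 2.31% of its genes are lower. The 3 libraries of each group did not overlap for 6 members, as for 4.34% of all genes, and the exception was Hnf4a. The median log2 fold change of the members was -3.04 in the paired fit, against 0.01 over all genes tested.

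**Figure D2:**
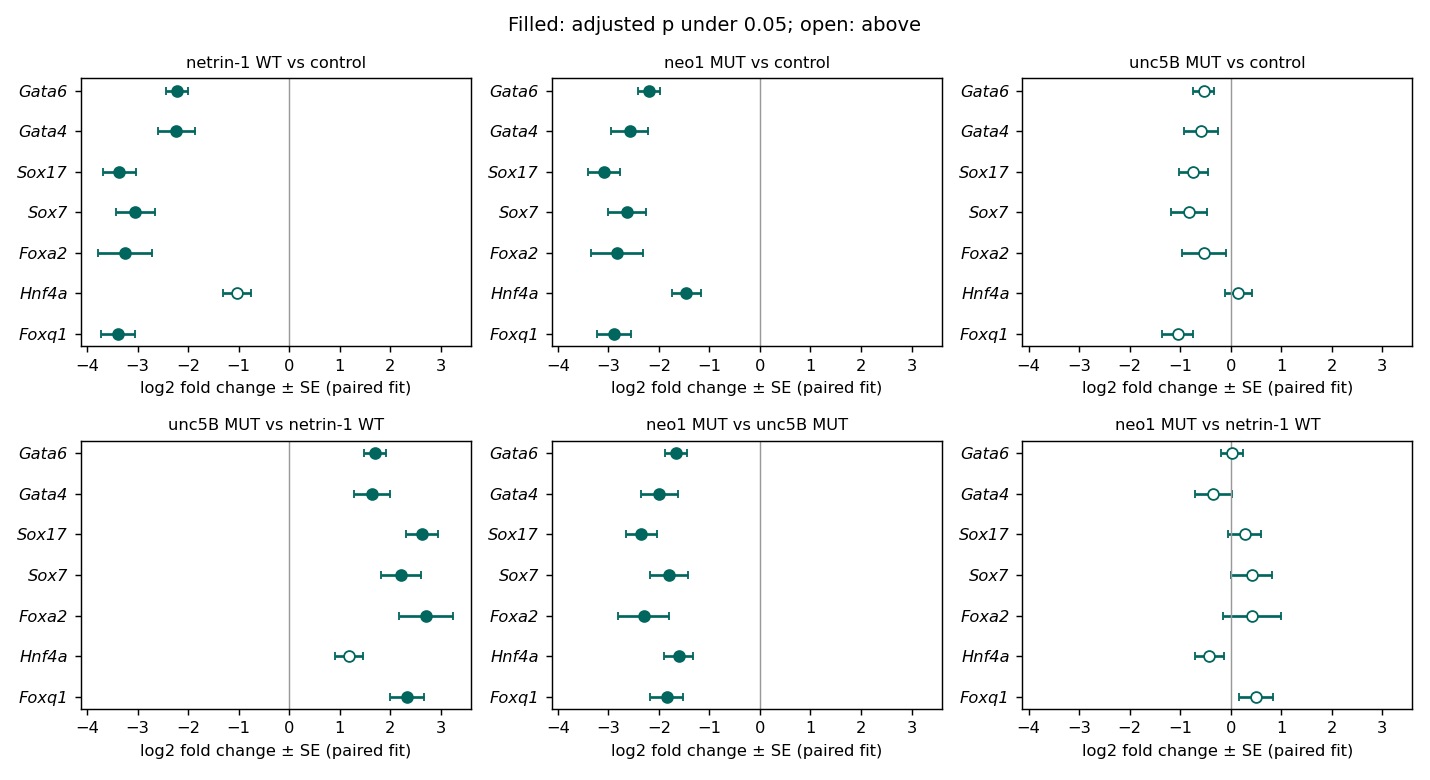
log2 fold change of each member with its SE in the paired fit, for the 6 comparisons; filled points have an adjusted p under 0.05 and open points do not. In netrin-1 WT against control 6 members lie between -3.39 and -2.23 and Hnf4a at -1.04, and in unc5B MUT against control all 7 points are open.

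In neo1 MUT against control all 7 members fell in the paired fit, where 3.3% of all genes were called lower and 1.97% higher. The log2 fold change was -2.20 ± 0.22 for Gata6 (adjusted p = 0.000664), -2.58 ± 0.37 for Gata4 (adjusted p = 0.00416), -3.09 ± 0.32 for Sox17 (adjusted p = 0.000706), -2.63 ± 0.38 for Sox7 (adjusted p = 0.00451), -2.83 ± 0.51 for Foxa2 (adjusted p = 0.0125) and -2.89 ± 0.33 for Foxq1 (adjusted p = 0.00132). Hnf4a fell by 1.46 ± 0.28 on the log2 scale (adjusted p = 0.0163), the smallest of the changes. The groups did not overlap for any of the 7, as for 5.96% of all genes. Without pairing, Gata6 (adjusted p = 0.0167) and Sox17 (adjusted p = 0.0436) were called in edgeR, against 0.114% of all genes, and the others ran from 0.0812 for Gata4 to 0.532 for Hnf4a. The authors' deposited table has all 7 lower with adjusted p of 0.000253 to 0.0105, where 3.6% of its genes are. The members' median was -2.63, against 0.02 over all genes.

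In unc5B MUT against control no member passed the test. Group means stood at 68.9% of control for Gata6, 67.3% for Gata4, 59.5% for Sox17, 55.4% for Sox7, 69.4% for Foxa2, 46.9% for Foxq1 and 112% for Hnf4a. The paired log2 fold change of Foxq1 was -1.05 with a 95% interval of -1.73 to -0.37 (adjusted p = 0.702), and that of Gata6 was -0.53 with an interval of -0.99 to -0.07 (adjusted p = 0.989). For Hnf4a it was 0.15 with an interval of -0.45 to 0.74. In edgeR 0 members were called in either fit, against 0% of all genes without pairing and 0.00475% called lower with it. At an unadjusted p under 0.05 there were 0 members and 238 of the 21053 genes without pairing, and 4 members and 990 genes with it. DESeq2 and limma-voom called 0 members with and without the block. Sox17 and Foxq1 were below control in all libraries, as were 2.05% of all genes. The authors' deposited table gives adjusted p of 0.603 to 0.999 for the members. Within each number 6 members were below their control library, and Hnf4a was above it by 0.08 to 0.21 on the log2 CPM scale.

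In unc5B MUT against netrin-1 WT 6 members rose in the paired fit, against 1% of all genes called higher. The log2 fold change was 1.69 ± 0.22 for Gata6 (adjusted p = 0.00558), 1.64 ± 0.36 for Gata4 (adjusted p = 0.0445), 2.62 ± 0.32 for Sox17 (adjusted p = 0.00396), 2.22 ± 0.39 for Sox7 (adjusted p = 0.0215), 2.71 ± 0.53 for Foxa2 (adjusted p = 0.0321) and 2.34 ± 0.33 for Foxq1 (adjusted p = 0.0092). For Hnf4a it was 1.18 ± 0.28 (adjusted p = 0.0572). The groups did not overlap for the same 6 members, as for 5% of all genes, and within each number all 7 were higher in unc5B MUT. Without pairing edgeR called 0 members and 0% of all genes higher, while DESeq2 called 5 members and limma-voom 0. In that edgeR fit 6 members had an unadjusted p under 0.05, as had 1059 of the 21053 genes in either direction. The authors' deposited table has all 7 higher with adjusted p of 0.00189 to 0.0325, where 1.63% of its genes are. In the paired fit the calls came to 2, 3 and 3 without unc5B MUT library 1, 2 or 3, to 2 without netrin-1 WT library 1 and to 1 without netrin-1 WT library 2.

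In neo1 MUT against unc5B MUT all 7 members fell in the paired fit, against 3.28% of all genes called lower. Sox17 had the largest log2 fold change, -2.35 ± 0.31 (adjusted p = 0.00357), followed by Foxa2 at -2.30 ± 0.50 (adjusted p = 0.0298), Gata4 at -1.99 ± 0.36 (adjusted p = 0.0149), Foxq1 at -1.84 ± 0.33 (adjusted p = 0.0133), Sox7 at -1.80 ± 0.37 (adjusted p = 0.0245), Gata6 at -1.67 ± 0.22 (adjusted p = 0.00293) and Hnf4a at -1.61 ± 0.28 (adjusted p = 0.0133). Here the change of Hnf4a differed from that of Gata6 by less than either SE. No library of neo1 MUT overlapped one of unc5B MUT in any member, as for 6.65% of all genes. Without pairing edgeR called 0 members and 0.119% of all genes lower, while DESeq2 called 4 members and limma-voom 1. In that edgeR fit all 7 members had an unadjusted p under 0.05, as had 1443 of the 21053 genes in either direction. The authors' deposited table has all 7 lower with adjusted p of 0.00108 to 0.0426, where 4.17% of its genes are. In the paired fit 4 were called without neo1 MUT library 2, and 2 and 4 without unc5B MUT library 1 or 2.

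Between neo1 MUT and netrin-1 WT no member passed the test. The paired log2 fold change was 0.03 for Gata6 with a 95% interval of -0.45 to 0.50, -0.35 for Gata4 (-1.15 to 0.45), 0.27 for Sox17 (-0.44 to 0.99), 0.42 for Sox7 (-0.47 to 1.30), 0.41 for Foxa2 (-0.85 to 1.68), -0.43 for Hnf4a (-1.05 to 0.20) and 0.50 for Foxq1 (-0.24 to 1.23). These intervals leave room for differences above a doubling in Sox7, Foxa2, Foxq1, Gata4 and Hnf4a, so they do not show equal levels. The paired edgeR fit called 0 members, against 1.6% of all genes lower and 0.394% higher. At an unadjusted p under 0.05 there were 0 members in either fit, against 1015 of the 21053 genes without pairing and 3006 with it. The direction differed by number. In numbers 1 and 2 the medians of the members were 0.49 and 0.66 on the log2 CPM scale, with 6 and 5 members higher in neo1 MUT, whereas in number 3 the median was -0.99 and 6 of 7 were lower. Without number 3 the paired fit called Foxq1 higher in neo1 MUT, with a log2 fold change of 0.92 (adjusted p = 0.0245).

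Number 3 shifted the members unequally. Against the mean of numbers 1 and 2 on the log2 CPM scale, Hnf4a in number 3 was at -1.69 in unc5B MUT, -1.73 in netrin-1 WT and -1.60 in control, but at -0.43 in neo1 MUT. Gata4 was above 0 in those groups, at 1.18 in unc5B MUT, 0.75 in netrin-1 WT and 0.98 in control, and at -0.54 in neo1 MUT. In neo1 MUT number 3 was lower for all 7 members, down to -2.28 for Foxq1. What the numbers stand for is not given in the labels, and the part of the number in these differences was not tested. Against control, all 7 members were lower in each number in neo1 MUT and in netrin-1 WT. The difference of Foxq1 was -2.71, -2.41 and -4.10 in neo1 MUT and -3.58, -3.37 and -3.11 in netrin-1 WT, and that of Hnf4a was -1.73, -1.96 and -0.68 in neo1 MUT and -0.64, -1.38 and -1.14 in netrin-1 WT. With number 3 left out of every group, the paired fit called 7 members lower in neo1 MUT and 7 lower in netrin-1 WT, each against control, 7 higher in unc5B MUT against netrin-1 WT and 7 lower in neo1 MUT against unc5B MUT. Hnf4a then passed in netrin-1 WT against control, at a log2 fold change of -1.0 (adjusted p = 0.0114), and Foxq1 passed in unc5B MUT against control, at -1.21 (adjusted p = 0.0483). The same fit without pairing called 7 members in neo1 MUT and 7 in netrin-1 WT against control. The share of all genes called in the fits without number 3 is not given here, and the shares given above are not those of these fits.

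**Figure D3:**
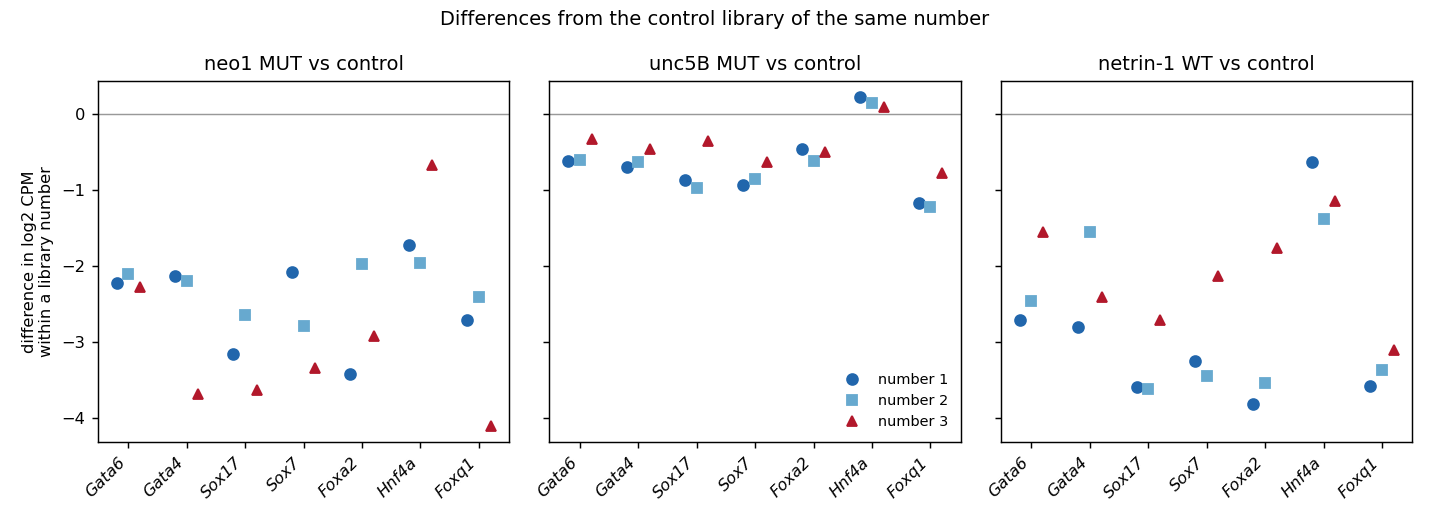
Difference in log2 CPM of each member from the control library of the same number, for neo1 MUT, unc5B MUT and netrin-1 WT, with symbols for the number. All points of neo1 MUT and netrin-1 WT are below 0, from -4.10 for Foxq1 in neo1 MUT number 3 to -0.64 for Hnf4a in netrin-1 WT number 1, and Hnf4a alone is above 0 in unc5B MUT.

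Across the 12 libraries the members varied together, with Hnf4a apart. On log2 CPM centred within each number, the 21 pairs had Pearson correlations of 0.71 to 0.99 with a median of 0.95. Gata6 correlated with the mean of the other members at 0.99, Sox17 at 0.99, Sox7 at 0.97, Foxq1 at 0.97, Foxa2 at 0.96, Gata4 at 0.94 and Hnf4a at 0.77. Without centring the lowest pair was Gata4 with Hnf4a, at 0.38; number 3 was low for Hnf4a and high for Gata4 in 3 of the 4 groups. These points share their library, its depth and its scaling factor, and 4 group means make up most of the spread, so the correlations are a description.

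**Figure D4:**
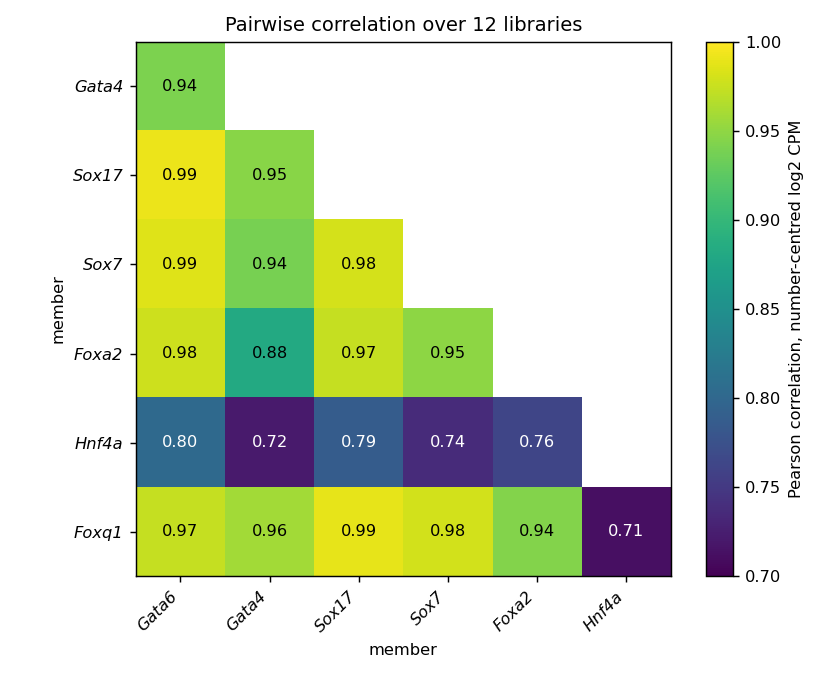
Pearson correlation of each pair of members over the 12 libraries, on log2 CPM centred within the library number; brighter cells are higher. The pairs with Hnf4a lie at 0.71 to 0.80, below the median of all 21 pairs of 0.95.

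Likeness was the Pearson correlation with the members' mean over the 12 libraries, on log2 CPM centred within each number. Each member was scaled before averaging. The genes most like the members were those with the highest values, among 10503 genes with a mean of at least 5 CPM in a group. They were Pdgfra (0.990), Fbp2 (0.990), Emp2 (0.988), Eif3e (0.988), Sparc (0.986), Tmbim6 (0.986), Bend5 (0.986), Tcf23 (0.986), Gpat3 (0.985) and Dkk1 (0.985). Pdgfra, the platelet-derived growth factor receptor used to sort primitive endoderm cells, averaged 9.28 CPM in neo1 MUT, 44.0 CPM in unc5B MUT, 9.51 CPM in netrin-1 WT and 54.9 CPM in control. Eif3e, a subunit of a translation initiation factor, had a smaller span and its lowest mean in netrin-1 WT, at 193 CPM in neo1 MUT, 275 CPM in unc5B MUT, 186 CPM in netrin-1 WT and 291 CPM in control. Dkk1, a secreted Wnt inhibitor of the anterior visceral endoderm, spanned 0.798 CPM in neo1 MUT, 7.06 CPM in unc5B MUT, 0.570 CPM in netrin-1 WT and 8.15 CPM in control.

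Other genes of the lineage were read from lists chosen with earlier results of these data known, so their counts are a description. Calls are from the paired fit, in which 3.3% of all genes were lower and 1.97% higher in neo1 MUT, and 1.76% lower and 1.74% higher in netrin-1 WT, each against control. In the unpaired edgeR fit, calls against control were made in the early surface list (3 lower in each comparison) and among the other transcription factors (1 lower in netrin-1 WT), and 0 in each of the other 13 lists. Among 9 genes of the early primitive endoderm surface and its endocytic adaptor, 8 fell in neo1 MUT and 8 in netrin-1 WT against control, and 7 rose in unc5B MUT against netrin-1 WT. Their median log2 fold change was -2.35 in neo1 MUT and -2.51 in netrin-1 WT against control, against 0.02 and 0.01 over all genes. Cubn, a receptor of nutrient uptake, was at 16.3 CPM in neo1 MUT and 9.01 CPM in netrin-1 WT, against 125 CPM in control, and fell by 3.14 ± 0.33 (adjusted p = 0.000846) and 3.90 ± 0.34 (adjusted p = 0.000396) on the log2 scale. Serpinh1, a collagen chaperone, fell by 2.35 ± 0.24 in neo1 MUT (adjusted p = 0.000706) and 1.87 ± 0.24 in netrin-1 WT (adjusted p = 0.00212), whereas the endocytic receptor Lrp2, with 98.4 CPM in neo1 MUT, 105 CPM in netrin-1 WT and 150 CPM in control, fell by 0.57 ± 0.10 (adjusted p = 0.0123) and 0.47 ± 0.10 (adjusted p = 0.0287). Among 11 basement membrane genes 6 fell in neo1 MUT and 5 in netrin-1 WT. The collagen gene Col4a1 fell by 1.46 ± 0.23 in neo1 MUT (adjusted p = 0.00728) and 1.63 ± 0.23 in netrin-1 WT (adjusted p = 0.00409), whereas Lamc1 (-0.44 and -0.19) and Hspg2 (0.16 and 0.25) did not pass.

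The other transcription factors of extraembryonic endoderm were mostly not called. Of 14 tested, 2 fell in neo1 MUT and 2 in netrin-1 WT against control, and the list's median log2 fold change was -0.22 in neo1 MUT and -0.08 in netrin-1 WT. Tcf23, a basic helix-loop-helix factor that the likeness rule also named, was at 1.73 CPM in neo1 MUT and 1.02 CPM in netrin-1 WT, against 13.5 CPM in control, and its log2 fold change was -2.95 ± 0.30 in neo1 MUT (adjusted p = 0.000706) and -3.64 ± 0.32 in netrin-1 WT (adjusted p = 0.000396). The abundant members Sall4 (-0.25 and -0.27), Nr5a2 (-0.18 and 0.36) and Otx2 (1.39 and 0.11) did not pass in neo1 MUT or netrin-1 WT. Among 7 tested relatives of the members 0 were called in paired edgeR against control, with Gata3 at -1.16 in neo1 MUT (adjusted p = 0.0626) and 0.47 in netrin-1 WT, Gata1 at -0.75 and -0.10, and Foxa1 at 0.30 and 0.29.

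Later derivatives of the lineage moved in part. Of 13 visceral endoderm genes for secreted and lipid-transport proteins 8 were tested, of which 3 fell and 1 rose both in neo1 MUT and in netrin-1 WT against control. The gene that rose was the transferrin gene Trf, by 0.96 ± 0.22 in neo1 MUT (adjusted p = 0.0353) and 1.37 ± 0.22 in netrin-1 WT (adjusted p = 0.00847), and the lipid transfer gene Mttp fell by 1.01 ± 0.25 (adjusted p = 0.0427) and 1.32 ± 0.25 (adjusted p = 0.0183). Apom, an apolipoprotein gene, fell in neo1 MUT by 1.87 ± 0.23 (adjusted p = 0.00178) and was at -0.72 ± 0.22 in netrin-1 WT (adjusted p = 0.103). Of 5 anterior visceral endoderm genes 1 fell in neo1 MUT (Dkk1) and 2 in netrin-1 WT (Dkk1 and Lefty1), while Hhex was at -0.55 ± 0.17 and -0.43 ± 0.17 and did not pass. Of 8 parietal endoderm genes 5 fell in neo1 MUT and 3 in netrin-1 WT. Snai1, a zinc-finger repressor, fell in both, by 1.61 ± 0.34 (adjusted p = 0.0229) and 1.70 ± 0.34 (adjusted p = 0.0218). Vim, the vimentin gene, fell in neo1 MUT by 0.68 ± 0.15 (adjusted p = 0.0254) and was at -0.11 ± 0.15 in netrin-1 WT (adjusted p = 0.76). Tfpi, a coagulation inhibitor gene, fell in neo1 MUT by 0.78 ± 0.19 (adjusted p = 0.0367) and was at -0.45 ± 0.18 in netrin-1 WT (adjusted p = 0.225).

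Few genes that oppose or induce Gata6 were called. Of 10 pluripotency factors 0 were called in neo1 MUT and 1, Sox2, rose in netrin-1 WT, by 0.75 ± 0.14 (adjusted p = 0.0144). Pou5f1 was at -0.04 ± 0.09 in neo1 MUT and -0.17 ± 0.09 in netrin-1 WT, and Zfp42 at -0.36 ± 0.24 and 0.24 ± 0.24. The list's median was -0.16 in neo1 MUT and 0.28 in netrin-1 WT. Of 10 genes of the FGF signal 2 fell in each, Spry2 and the receptor gene Fgfr2, which were chosen after their values were seen. Fgfr2 is also counted in the early surface list above. Spry2, a feedback inhibitor, fell by 0.72 ± 0.13 in neo1 MUT (adjusted p = 0.0115) and 0.56 ± 0.13 in netrin-1 WT (adjusted p = 0.0384), and Fgfr2 by 1.71 ± 0.33 (adjusted p = 0.0152) and 2.31 ± 0.34 (adjusted p = 0.00498). The more abundant Etv5 (0.34 in neo1 MUT and 0.30 in netrin-1 WT), Etv4 (0.26 and 0.20) and the receptor gene Fgfr1 (0.20 and 0.19) did not pass.

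Several members also act in other lineages, whose markers were counted in the same comparisons with control. Of 8 tested mesendoderm and definitive endoderm genes 1 rose in neo1 MUT (Cdx1, 1.52 ± 0.25, adjusted p = 0.00801) and 0 were called in netrin-1 WT. The summed level of all 9 genes of that list was 9.02 to 14.3 CPM in neo1 MUT, 4.40 to 7.23 CPM in unc5B MUT, 7.17 to 8.96 CPM in netrin-1 WT and 5.75 to 6.71 CPM in control. Of 8 tested cardiac and smooth muscle genes and 3 tested liver and gut genes 0 were called by paired edgeR in either comparison. Summed over all 10 and 9 genes of these lists, the levels in any library were at most 11.1 CPM and 5.09 CPM. Of 9 endothelial and blood genes 1 fell in each, the blood factor Runx1, by 1.79 ± 0.35 in neo1 MUT (adjusted p = 0.0175) and 2.27 ± 0.36 in netrin-1 WT (adjusted p = 0.00784). Of 9 trophectoderm genes 1 fell in neo1 MUT (Krt8), while 1 rose (Tfap2c) and 1 fell (Plac1, chosen after its values were seen) in netrin-1 WT. Of 4 tested fibroblast genes 1 fell in neo1 MUT (Thy1, -1.30 ± 0.28, adjusted p = 0.0253) and 0 were called in netrin-1 WT. The summed level of all 8 genes of that list was 4.76 to 8.29 CPM in neo1 MUT, 10.4 to 10.5 CPM in unc5B MUT, 6.97 to 20.3 CPM in netrin-1 WT and 8.32 to 24.1 CPM in control. The other named markers did not pass in either comparison. In neo1 MUT and netrin-1 WT the log2 fold changes were 0.77 and 0.35 for Cxcr4, 0.50 and 0.35 for Myl7, -0.83 and -0.33 for Hand1, -0.33 and 0.23 for Tagln, 0.30 and 0.05 for Pecam1 and 0.37 and 0.65 for Tek. They were -0.34 and 0.50 for Vil1, -2.03 and -0.29 for Cdh17, -0.21 and -1.09 for Pdx1, 0.55 and 0.38 for Eomes, -0.53 and -0.35 for Col1a1 and -1.55 and 0.55 for Fbln2. The part of other cell types in the members' changes was not tested.

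The nearest tested gene on each side of the members gave 14 neighbours, a set added after the values were seen. Genes that overlap a member were left out of this set. Against control, 2 fell and 0 rose in neo1 MUT, and 2 fell and 1 rose in netrin-1 WT, in the paired fit, with medians of 0.03 and 0.09, where 3.3% of all genes were lower and 1.97% higher in neo1 MUT and 1.76% lower and 1.74% higher in netrin-1 WT. None of the 14 passed in unpaired edgeR, where the lowest adjusted p were those of Foxf2, 0.0646 in neo1 MUT and 0.0532 in netrin-1 WT. Foxf2, a forkhead gene 64840 bp from Foxq1 (chromosome 13, 31625816 to 31631403), had the members' pattern. It was at 0.235, 0.131 and 0.0525 CPM in neo1 MUT, 1.14, 0.740 and 0.435 CPM in unc5B MUT, 0.0984, 0.133 and 0.0969 CPM in netrin-1 WT and 2.66, 1.65 and 1.12 CPM in control. Foxf2 fell by 3.63 ± 0.38 in neo1 MUT (adjusted p = 0.000846) and by 4.02 ± 0.40 in netrin-1 WT (adjusted p = 0.000678) against control. In each neo1 MUT and netrin-1 WT library Foxf2 was below Foxa2, the lowest member, so these changes rest on very few counts in the low groups. R3hdml, 4196 bp from Hnf4a, fell by 1.39 ± 0.30 in netrin-1 WT (adjusted p = 0.0329) and was at -0.74 ± 0.29 in neo1 MUT (adjusted p = 0.181). Gm37381, 504716 bp off on the lower side of Sox17, fell in neo1 MUT by 1.32 ± 0.24 (adjusted p = 0.0123). Fam167a, 164702 bp off on the higher side of Gata4, rose in netrin-1 WT by 1.53 ± 0.31 (adjusted p = 0.0256). The nearest tested genes of Gata6, Sox7 and Foxa2 were not called in either comparison. They lay 233360 and 547641 bp from Gata6, 23814 and 171893 bp from Sox7 and 957432 and 625632 bp from Foxa2. The antisense gene 1010001N08Rik, which overlaps Gata6 and is not among these neighbours, did fall in netrin-1 WT against control. Its paired log2 fold change was -2.51 (adjusted p = 0.0066), and its reads cannot be told apart from those of Gata6.

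**Figure D5:**
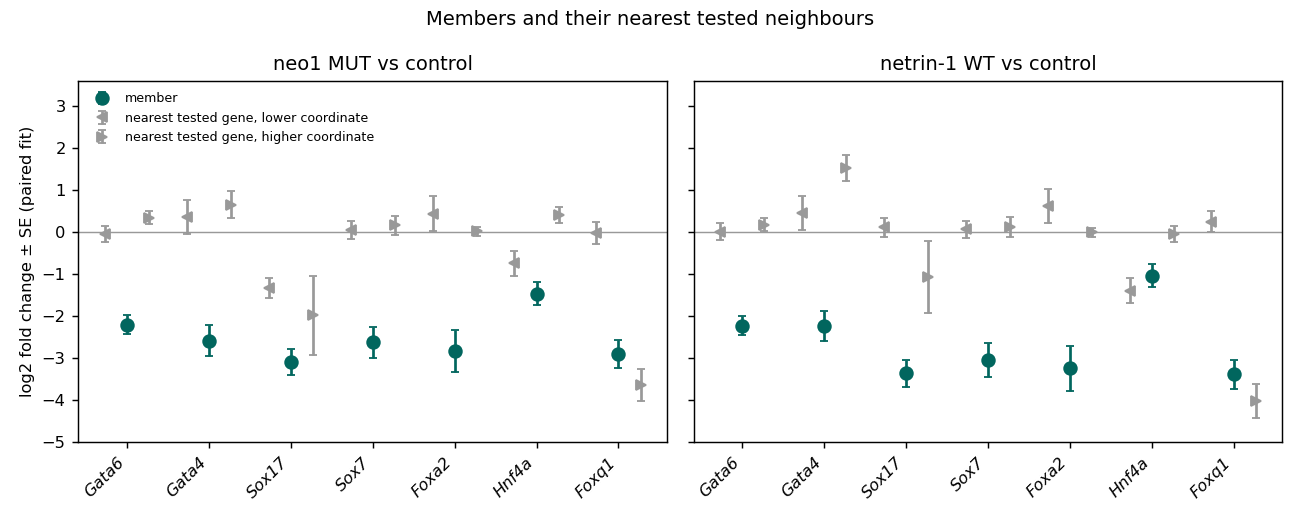
Paired log2 fold change with SE of each member (circles) and of its nearest tested gene at lower and higher coordinates (triangles), in neo1 MUT and netrin-1 WT against control. Foxf2, right of Foxq1, lies at -3.63 and -4.02, while the neighbours of Gata6, Sox7 and Foxa2 lie between -0.05 and 0.62. Genes that overlap a member are not drawn.

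Upstream sequence was examined for only 2 of the 7 members, in 5 start sites, from RefSeq on GRCm38.p6. The upstream sequence of the other members was not examined, whether or not it was available. The stretches below read 5′ to 3′ on the gene's strand, and that of Foxa2 start 2, which held no match, is not shown. They end at the annotated start or at the edge of an annotated exon. The stretch of Hnf4a start 1 runs past that edge to the end of a GATAA match. Foxa2 and Hnf4a lie on the same chromosome. In netrin-1 WT against control their paired log2 fold changes were -3.24 and -1.04, and only that of Foxa2 passed. Capitals mark matches, on either strand, to the core motifs GATAA (GATA factors), ACAAT (SOX factors), TGTTTAC (FOX factors) or CAAAGTCCA (HNF4); the letters do not overlap between motifs here.
Foxa2 start 1, chr2:148046970-148047219, minus strand: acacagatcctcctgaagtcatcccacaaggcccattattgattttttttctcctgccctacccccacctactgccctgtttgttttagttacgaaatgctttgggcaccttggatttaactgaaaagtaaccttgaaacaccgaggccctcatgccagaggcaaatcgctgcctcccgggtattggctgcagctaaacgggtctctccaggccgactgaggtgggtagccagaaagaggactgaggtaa
Foxa2 start 3, chr2:148045465-148045714, minus strand: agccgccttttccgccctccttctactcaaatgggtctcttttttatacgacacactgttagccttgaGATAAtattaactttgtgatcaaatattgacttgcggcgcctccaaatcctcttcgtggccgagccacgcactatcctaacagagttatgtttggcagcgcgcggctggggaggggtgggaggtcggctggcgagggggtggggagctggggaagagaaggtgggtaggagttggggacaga
Hnf4a start 1, chr2:163506607-163506810, plus strand: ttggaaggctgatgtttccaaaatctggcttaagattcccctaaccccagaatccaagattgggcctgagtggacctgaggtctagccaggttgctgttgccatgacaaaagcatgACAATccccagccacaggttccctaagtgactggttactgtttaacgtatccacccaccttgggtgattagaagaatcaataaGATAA
Hnf4a start 2, chr2:163546943-163547154, plus strand: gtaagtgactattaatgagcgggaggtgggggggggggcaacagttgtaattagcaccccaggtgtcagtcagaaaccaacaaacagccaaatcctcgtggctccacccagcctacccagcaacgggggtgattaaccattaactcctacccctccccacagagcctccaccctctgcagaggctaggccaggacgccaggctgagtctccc
In the 250 bases before each start, GATAA occurred once at Foxa2 start 3 and once at Hnf4a start 1, which also held ACAAT, and the other 3 windows had no match. Of 32851 promoter windows of the same length, 22.6% held GATAA, 27.7% ACAAT, 3.17% TGTTTAC and 0.384% CAAAGTCCA. A match here describes the letters and is not evidence of binding.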

How the data were processed

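RNA of 12 libraries was measured by RNA-seq. The deposited table holds estimated counts per gene, made by the authors and not whole numbers; the submitters' processing notes list STAR 2.5.2b, Bowtie2, Bowtie, FastQC 0.11.5, DESeq2 and R 3.3.2 without their roles, and the counting program and its use of strand are not given in the sources used here. The authors' deposited table of comparisons gives, per the file headers, log2 fold changes and adjusted p-values, whose model is not stated. Estimated counts were rounded to whole numbers and tested with edgeR 4.0.16 in R 4.3.3 (TMM, filterByExpr, quasi-likelihood, all 12 libraries in 1 fit, group as the only term); the paired fit adds the library number. The pairing rests on the numbers in the titles and on the correlations of same-numbered libraries, all above the minimum of 0.1; numbers 1 and 2 of different groups also correlated, at 0.49 to 0.76, so the check sets only number 3 apart. DESeq2 1.42.0 and limma 3.58.1 (voom) were alternatives. log2 CPM used a prior count of 2. Of 52661 IDs, 52566 matched GENCODE M21, which gave coordinates and exon lengths. Scripts were tested on simulated data. The members and the 15 gene lists were chosen with earlier results of these data known. Named were all members, the 3 most abundant genes of each list, the 10 genes most like the members, and genes said to be chosen later. The authors' normalized table was not used. The lists cover other extraembryonic endoderm factors, early surface genes, basement membrane, visceral, anterior visceral and parietal endoderm, pluripotency, FGF signal, mesendoderm, cardiac, endothelial and blood, liver and gut, trophectoderm, fibroblast markers and relatives of the members. 1 gene of the list of other extraembryonic endoderm factors is counted but not reported here.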

Additional observations from a re-analysis of the deposited data

How the results depend on the processing

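No member's log2 fold change with a call reversed under any setting. The counts of called members did change; they are given as netrin-1 WT against control, neo1 MUT against control, unc5B MUT against netrin-1 WT and neo1 MUT against unc5B MUT, and were 2, 2, 0 and 0 in unpaired edgeR. With the replicate block they were 6, 7, 6 and 7, and the same with RLE factors added; DESeq2 and limma-voom with the block each gave 7, 7, 7 and 7. Unpaired DESeq2 gave 6, 6, 5 and 4, and limma-voom 1 in the last. A fit on only the 2 groups compared gave 0 in both comparisons with control, no low-count filter gave 1 in neo1 MUT against control, and 1 CPM in 3 libraries gave 1 in neo1 MUT against unc5B MUT. Without number 3 in every group the unpaired counts were 7, 7, 5 and 3; with the block they were 7 in all 4, and 1 in unc5B MUT against control and 1 in neo1 MUT against netrin-1 WT. Leaving out single libraries, the unpaired count in netrin-1 WT against control was 0 without netrin-1 WT library 1 or 2 or any control library and 1 without netrin-1 WT library 3; in neo1 MUT against control it was 0 without any neo1 MUT library or control library 1 or 2 and 1 without control library 3. With the block these ranged from 5 to 6 and from 5 to 7, in unc5B MUT against netrin-1 WT from 1 to 6 and in neo1 MUT against unc5B MUT from 2 to 5. Among these settings, the share of all genes called is given above only for the unpaired and paired edgeR fits on all 12 libraries. Over all settings the members' median log2 fold change stayed within -3.49 to -2.70, -3.10 to -2.32, 1.94 to 2.52 and -2.31 to -1.55. It was -0.98 to -0.40 in unc5B MUT against control and -0.14 to 0.71 in neo1 MUT against netrin-1 WT. Of the 10 genes most like the members, 4 were also found without centring and 3 by Spearman correlation. The cause of these changes was not tested beyond what the settings themselves change (fewer libraries or genes). Among the members, counting error is largest for Foxa2, which had 4.33 to 10.9 estimated counts in 4 of the low libraries, and for Sox7 in neo1 MUT library 3, at 6.57.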
